A study of Rattus norvegicus with 8 samples.

Results

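The genes described here encode receptors for small amine transmitters (adrenaline and noradrenaline, dopamine, serotonin, histamine and, at muscarinic receptors, acetylcholine), for peptides and for purines. They were chosen by symbol: every probe set to which the array annotation gives a single symbol beginning with one of a fixed set of receptor family names was taken, and each gene was represented by its probe set with the highest mean signal. That gave 69 genes, represented by 101 probe sets, among the 8799 probe sets of the array and the 4736 genes with a single symbol. By ligand, 32 genes were amine receptors, 27 peptide receptors and 9 purine receptors. The remaining symbol, Oprpn, matches the opioid receptor prefix, although it names a secreted peptide precursor and no receptor. The endothelin receptor prefix and Cckar found no gene. Of the 69 genes, 68 had an identifier found in the rat RefSeq list with the same symbol; that of Avpr1b was not found.

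RNA came from Htt14A2.5, a stable line of rat PC12 cells, which derive from a chromaffin cell tumour of the adrenal medulla. The line carries a truncated, mutant exon 1 of human huntingtin that can be switched on by ponasterone (PA), a steroid inducer. The 4 samples titled +PA are called induced here and the 4 titled -PA uninduced, with replicates numbered 1 to 4 in each group. The descriptions give 48 h of induction for all 8 samples, so the titles alone separate the groups. Both groups carry the transgene, none of the 8 samples is a ponasterone-treated line without it, and all come from a single line, so the inducer and the transgene product cannot be told apart. Nothing in the labels ties the replicates to different cultures. The p-values measure only the spread between these samples, which may be technical.

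G-protein-coupled receptors cross the membrane several times and pass the binding of a ligand on to a heterotrimeric G protein. Receptors coupled to Gs raise cyclic AMP, those coupled to Gi lower it, and those coupled to Gq activate phospholipase C and release calcium from internal stores. Receptor kinases and arrestins then switch the receptor off. PC12 cells are a common model for several of these pathways, among them the adenosine receptor Adora2a, the bradykinin B2 receptor and, in some sublines, the angiotensin type 2 receptor.

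Each array gave a scaled signal per probe set, which is brightness without a unit. The median signal of the arrays ran from 97.5 to 134.9, and Spearman correlations between arrays from 0.945 to 0.967. Induced replicate 4 lay farthest from the other arrays on the first principal component (score -34.5, the next on that side -12.8; 25.4% of the variance). The 3'-to-5' log2 signal ratios of the RNA quality controls were 0.20 to 0.56 for Gapdh, -0.67 to 0.57 for beta-actin and 0.50 to 1.37 for hexokinase, with the 2 groups overlapping in each. Among chromaffin cell markers, 5 of 9 measured genes (Chgb, Phox2a, Ret, Scg2 and Snap25) lay above the background reference (defined below) on all 8 arrays. The summed signal of the 9 was 17293 to 21547 uninduced and 17861 to 19168 induced, while Phox2a fell (-0.70, limma adjusted p = 0.000484) and Ret rose (0.96, limma adjusted p = 0.00412). The probe sets of Dbh and Ddc lay below it on every array and that of Th on 7 of 8. These genes encode 3 defining enzymes of catecholamine synthesis. Summed markers of leukocytes (44.5 to 157 uninduced, 44.1 to 196 induced, 4 genes measured) and of adrenal cortex (49.6 to 75.1 uninduced, 40.1 to 94.6 induced, 4 genes measured) were low in both groups. Of fibroblast markers, Col1a1 and Col3a1 were above the reference on all 8 arrays (2 of 6 measured, summed signal 1407 to 1784 uninduced and 1552 to 1921 induced). Of 3 glial markers Pmp22 alone was above the reference on all 8 arrays and rose (log2 difference 0.81, limma adjusted p = 0.0161), with summed signals of 394 to 587 uninduced and 558 to 754 induced. The part of these cell types in the results below was not tested.

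Most of these receptors stayed under a background reference, a high percentile of the control probe set signals, on every array. The background reference was set on each array at the 95th percentile of 38 controls, which carry sequences from bacteria, yeast and mouse or read the opposite strand, and it lay between 101.6 and 183.5. On all 8 arrays 7 genes exceeded it, 20 did so on some arrays, and 42 on none. The share above the reference on all 8 arrays was 10.1% for these receptors and 45.2% for all genes with a single symbol. The share above it on no array was 60.9% and 35.5% in turn. A value under the reference does not show that a transcript is absent, since the file holds no detection calls. In bulk RNA, fewer cells expressing a gene and less RNA per cell cannot be told apart.

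**Figure D1:**
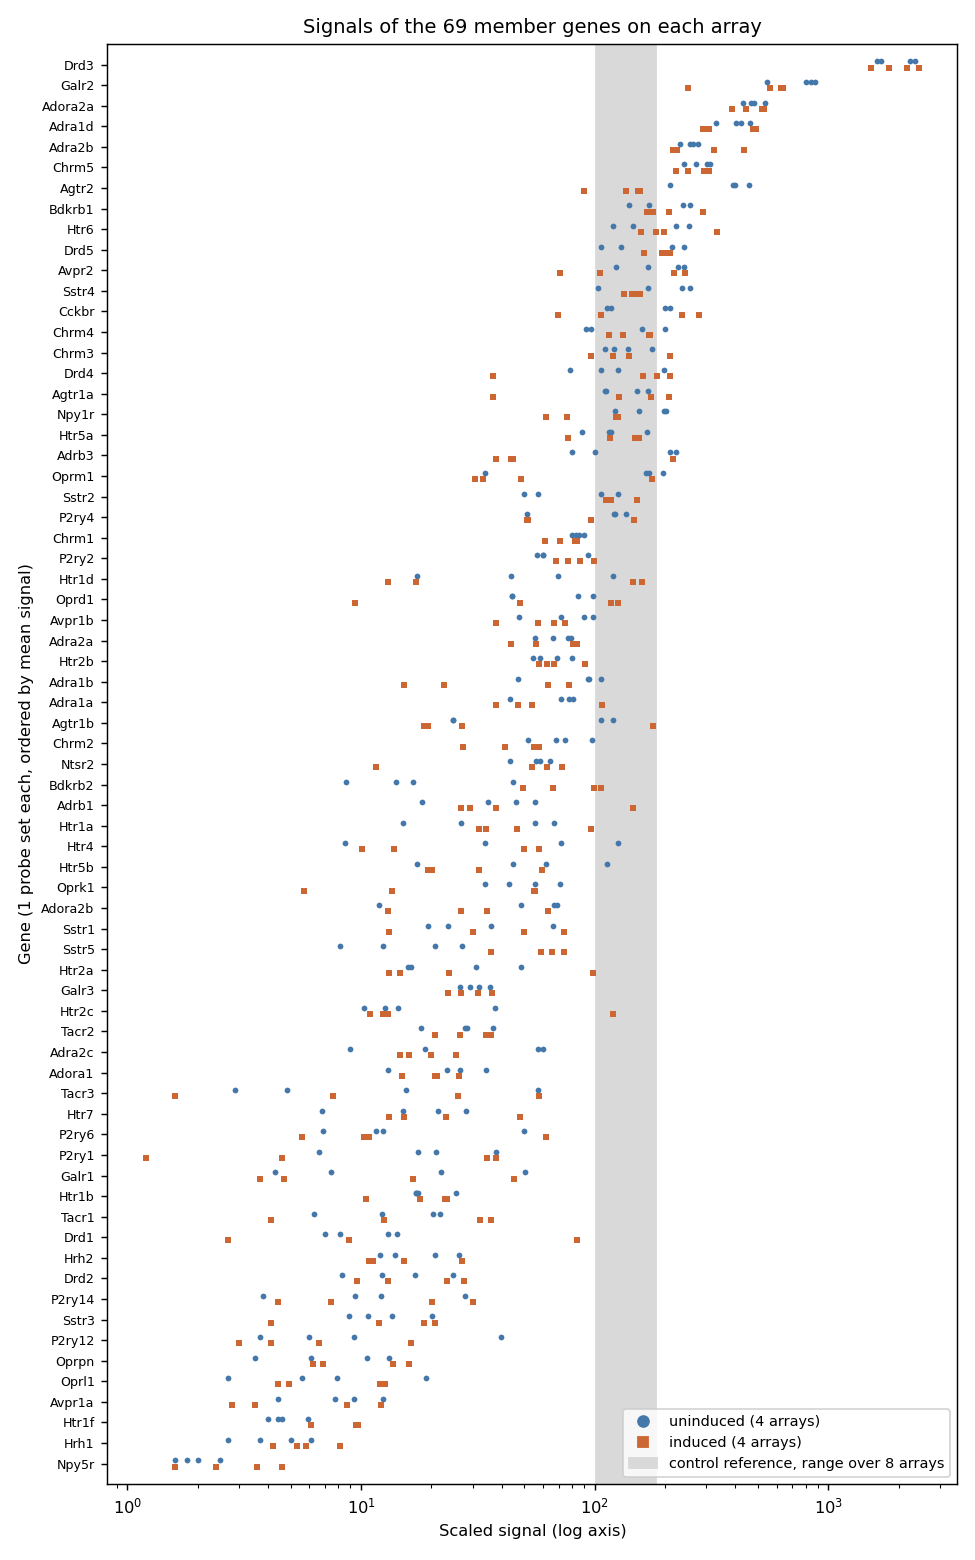
Scaled signal (log axis) of each of the 69 genes on the 4 uninduced (circles) and 4 induced (squares) arrays, ordered by mean signal, with the range of the background reference over the arrays (101.6 to 183.5) in grey. The groups overlap for all but 4 of the 69 genes, where 10.2% of all probe sets outside the controls do not overlap. On every array 42 genes lie under the reference (60.9%, beside 35.5% of all genes with a single symbol).

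The 7 genes above the reference throughout were the dopamine receptor Drd3, the galanin receptor Galr2, the adenosine receptor Adora2a, the adrenergic receptors Adra1d and Adra2b, the muscarinic receptor Chrm5 and the bradykinin receptor Bdkrb1. Several families stayed largely under it. All 3 tachykinin receptors (Tacr1, Tacr2 and Tacr3), both histamine receptors (Hrh1 and Hrh2), all 3 Htr2 serotonin receptors and 5 of 6 P2ry nucleotide receptors were above the reference on no array. The exception among the nucleotide receptors was P2ry4, above the reference on 2 of 8 arrays. P2ry2, a receptor for ATP and UTP, read 56.4 to 93.8 in uninduced and 68.4 to 99.3 in induced cells.

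Genes were tested where their mean signal reached 36.0, the 30th percentile of all probe sets. This kept 44 of the 69 genes and left out 25, whose group means ran from 1.98 to 38.9. A gene that is bright in one group alone can pass such a filter through that group. Differences are induced minus uninduced on the scale log2(signal + 7), fitted with limma over 6129 probe sets, and p-values were adjusted by the Benjamini-Hochberg method over all of them. Errors of differences are standard errors and those of signals SDs, with n = 4 per group.

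One tested receptor gene fell after induction and one rose. These were Agtr2, the angiotensin type 2 receptor, and Bdkrb2, the bradykinin B2 receptor, and the other 42 of the 44 tested did not pass an adjusted p of 0.05. Bdkrb2 lay under the background reference on every array and passed the filter only through its induced arrays. The 2 calls are 4.55% of the genes tested, where 7.06% of all tested probe sets were called (4.1% higher and 2.97% lower). An unadjusted p under 0.05 was reached by 5 of the 44 genes (11.4%) and by 18% of all probe sets. Differences were positive for 18 genes and negative for 26, with a median of -0.09 beside -0.05 over all probe sets tested. Over all probe sets, median centring of the arrays, an alternative scaling, changed the split of calls from 251 higher and 182 lower to 167 and 63.

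**Figure D2:**
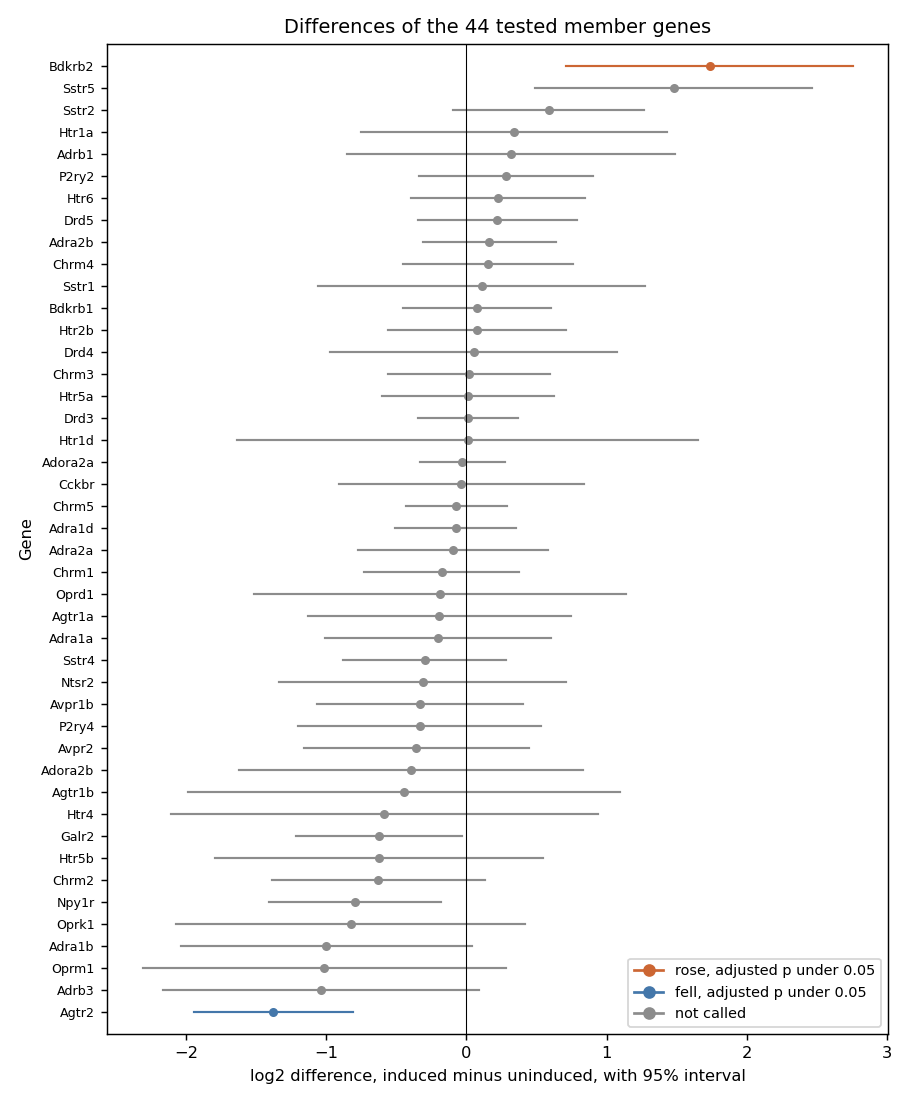
Log2 difference (induced minus uninduced) with its 95% interval for each of the 44 tested genes, in order of size. Agtr2 at -1.38 (fell) and Bdkrb2 at 1.73 (rose) stand at the ends of the order, and the intervals of most other genes span 0. Every Bdkrb2 signal lies under the background reference.

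Agtr2 had the lowest p of these genes. The receptor binds angiotensin II and couples atypically, with effects often opposed to those of the type 1 receptor. Its signals were 389, 399.9, 459 and 210.5 in uninduced replicates 1 to 4 and 153, 89.7, 137 and 156 in induced replicates 1 to 4. All 4 uninduced arrays lay above all 4 induced arrays, and uninduced replicate 4 was the nearest to the induced group. The mean fell from 365 ± 107 to 134 ± 30.5, a log2 difference of -1.38 ± 0.26 or 2.59-fold (limma adjusted p = 0.0068). Uninduced signals exceeded the reference on 4 of 4 arrays and induced signals on 3 of 4. The call held in all 8 fits that left out 1 array (differences of -1.61 to -1.21) and ended when replicate 2 was left out of each group, since its source name differs in wording from the rest (difference -1.14, limma adjusted p = 0.0695).

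A second Agtr2 probe set fell as well. It read 235, 265, 242 and 191 in uninduced replicates 1 to 4 and 74.5, 58.4, 72.1 and 4.8 in induced replicates 1 to 4. The induced values lay under the background reference on all 4 arrays, and the lowest of them, that of induced replicate 4, stood apart from the other 3. Its fitted difference was -2.34 ± 0.53 (limma adjusted p = 0.0179), and with the reference taken as the induced level the signal was at least 1.96-fold lower after induction. Without uninduced replicate 1, 2 or 3 the adjusted p was 0.0504, 0.0594 and 0.0551 in turn. It was 0.0682 without an intensity trend and 0.0886 without replicate 2 of each group, and without induced replicate 4 the difference was -1.67.

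**Figure D3:**
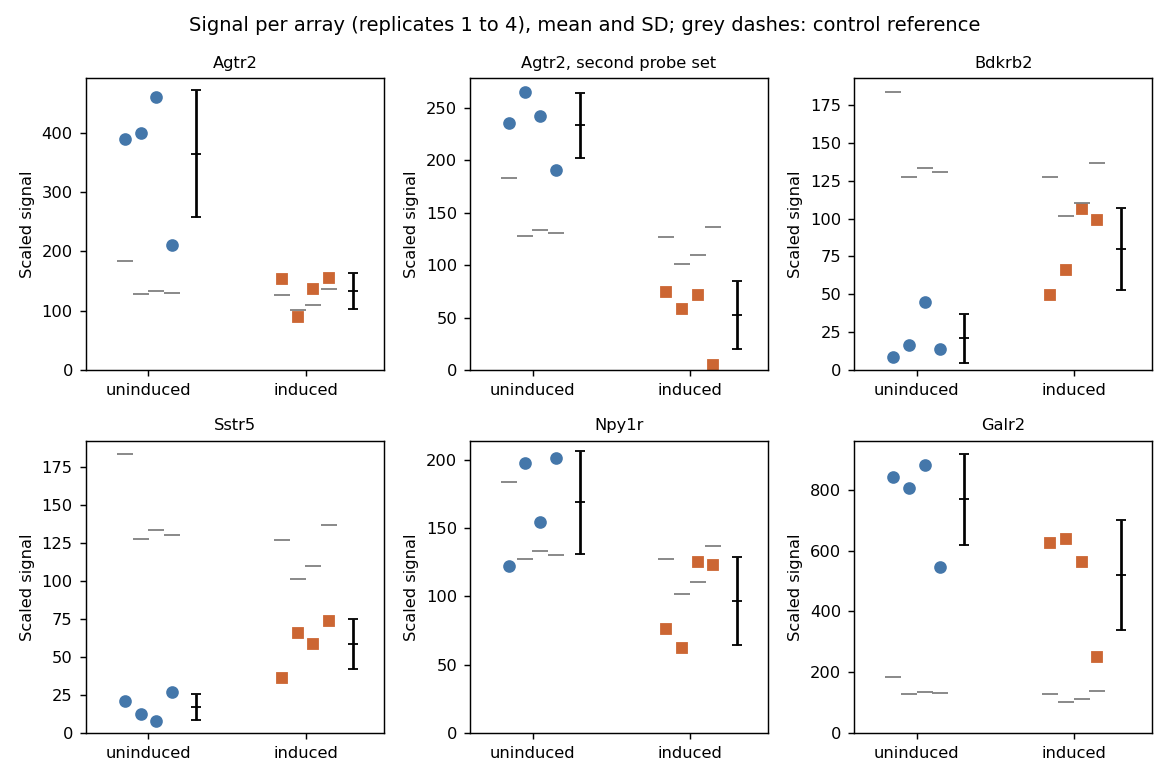
Scaled signal on each array for both Agtr2 probe sets, Bdkrb2, Sstr5, Npy1r and Galr2, replicates 1 to 4 from left to right in each group, with mean and SD beside the points and the array's background reference as grey dashes. Both Agtr2 probe sets are lower in all 4 induced arrays, while every Bdkrb2 and Sstr5 value lies under its reference.

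The sequence before the Agtr2 start site is shown because both probe sets of this gene fell together. RefSeq places these 250 bases on the plus strand of the X chromosome (assembly GRCr8, chrX:116914070-116914319), ending next to the annotated start.
Agtr2 upstream: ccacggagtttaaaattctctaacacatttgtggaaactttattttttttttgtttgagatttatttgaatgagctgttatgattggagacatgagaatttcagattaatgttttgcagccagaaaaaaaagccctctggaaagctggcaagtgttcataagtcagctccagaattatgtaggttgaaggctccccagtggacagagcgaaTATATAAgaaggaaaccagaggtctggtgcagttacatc
Capitals mark a TATATAA match (both strands searched), a TATA-like element whose first base is at -39 from the start. Such a match was present in 3.42% of 33469 rat promoter windows of the same length. Neither TGACTCA, the AP-1 element, nor TGACGTCA, the cyclic AMP response element, occurred in this window on either strand. They occurred in 4.05% and 1.59% of the windows. Of the 69 genes, 56 had an entry in this promoter table.

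The other angiotensin receptors were not called. Agtr1a, the type 1 receptor that drives vasoconstriction, read 111 to 169 uninduced and 36.7 to 209 induced (difference -0.19 ± 0.43, limma adjusted p = 0.89). Agtr1b read 24.8 to 119.5 uninduced and 18.5 to 178 induced (-0.44 ± 0.70, limma adjusted p = 0.835). The 2 type 1 genes are near-identical copies, and probe sets can bind transcripts of both. Of their other probe sets (3 each), 2 were tested, both of Agtr1b, and neither was called (-0.75 ± 0.43 and -0.12 ± 0.52). In the Agtr1a and Agtr1b probe sets given first, induced replicate 4 was the highest array of its group.

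Bdkrb2 is the constitutive bradykinin receptor, a Gq-coupled receptor known from PC12 cells. It read 8.6, 16.7, 44.8 and 14.1 in uninduced replicates 1 to 4 and 49.4, 66.0, 106.0 and 99.2 in induced replicates 1 to 4. The groups did not overlap, though uninduced replicate 3 and induced replicate 1 were close. The mean rose from 21.1 ± 16.2 to 80.2 ± 26.9, a log2 difference of 1.73 ± 0.47 (limma adjusted p = 0.0450). All 8 values lay under the background reference, and the uninduced mean was under the filter of 36.0, so the gene was tested only through its induced arrays. The size depends on the constant added (0.88 with a constant of 50), and no fold is given. The call held in 1 of the 8 fits without 1 array (without uninduced replicate 3, limma adjusted p = 0.0240). It ended in the other 7 fits, without any one of uninduced replicates 1, 2 and 4 and induced replicates 1 to 4 (limma adjusted p from 0.0556 to 0.141). It also ended with median centring (0.0556), with array weights (0.0546), without replicate 2 of each group (0.18) and with a constant of 1 (difference 2.07, limma adjusted p = 0.0505).

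Bdkrb1, the bradykinin receptor that is inducible by tissue injury, read 254, 170.3, 139.5 and 239 uninduced and 167.5, 208, 178 and 292 induced. The groups were interleaved, with a difference of 0.08 ± 0.24 and a 95% interval of -0.45 to 0.61 (limma adjusted p = 0.931). Its second probe set read 6.7 to 21.6 on the 8 arrays, so the 2 probe sets disagree on whether the gene gives signal over the reference.

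Among somatostatin receptors, which couple to Gi and restrain secretion, Sstr5 had groups that did not overlap. It read 20.7, 12.4, 8.1 and 27.1 uninduced and 35.9, 65.8, 58.9 and 74.0 induced. All 8 values lay under the reference, and Sstr5 too passed the filter only through its induced arrays (means 17.1 ± 8.49 and 58.7 ± 16.4). The fitted difference was 1.48 ± 0.45 and was not called (limma adjusted p = 0.0815). Its size was 0.69 with a constant of 50 and 1.81 with a constant of 1. The adjusted p crossed the threshold with quantile normalization (0.0314), without an intensity trend (0.0303) and with array weights (0.0473). Sstr2 read 126, 106, 57.0 and 49.8 uninduced and 112, 151, 117 and 112.5 induced (0.59 ± 0.31, limma adjusted p = 0.37), and uninduced replicate 1 alone lay within the induced range. The differences of Sstr1 (0.11 ± 0.53) and Sstr4 (-0.30 ± 0.27) were not called, and Sstr3 was not tested.

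Npy1r, the Y1 receptor for neuropeptide Y, couples to Gi. It read 122, 198, 155 and 201 in uninduced and 76.2, 61.9, 125 and 123 in induced cells. Uninduced replicate 1 lay within the induced range, so the groups overlapped. The difference of -0.79 ± 0.28 had an unadjusted limma p of 0.0152 and was not called (limma adjusted p = 0.136). With array weights it passed (difference -0.97, limma adjusted p = 0.0419), the only 1 of 19 alternatives that did. It passed in 0 of the 8 fits without 1 array (limma adjusted p = 0.0965 to 0.315). Npy5r read 1.6 to 4.6 on all arrays and was not tested.

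Galr2, a galanin receptor that couples mainly to Gq, was well above the reference on all 8 arrays. Its signals were 841, 805, 880.1 and 546.5 uninduced and 626, 637, 563 and 251 induced. The groups overlapped through uninduced replicate 4, and induced replicate 4 was the lowest array of all. Means were 768 ± 151 and 519.5 ± 182, with a difference of -0.62 ± 0.27 that was not called (limma adjusted p = 0.246). With the replicate number as a block the difference passed (limma adjusted p = 0.0485). Without induced replicate 4 the difference was -0.31 (limma adjusted p = 0.36). Galr1 and Galr3 were under the reference on all arrays and were not tested.

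Of 27 peptide receptors 18 were tested, of which 1 rose and 1 fell (11.1% called, beside 7.06% of all tested probe sets). The gene that rose, Bdkrb2, lay under the background reference on every array. At an unadjusted p under 0.05 there were 5 (27.8%, beside 18% of all tested probe sets), and the median difference was -0.30. Apart from Agtr2 and Bdkrb2 none was called. Avpr2, the Gs-coupled vasopressin receptor of the kidney, read 123 to 241 uninduced and 70.9 to 243 induced (-0.36 ± 0.37), and Avpr1b read 47.2 to 98.0 and 37.8 to 74.5 (-0.33 ± 0.34). Cckbr, the gastrin and cholecystokinin B receptor, differed by -0.04 ± 0.40. A second Cckbr probe set read 7.9 to 44.2 uninduced and 40.3 to 118.4 induced. It differed by 1.53 ± 0.52 in the other direction and was not called either (limma adjusted p = 0.118). Every value of this probe set lay under the background reference. It passed the filter only through its induced arrays (means 20.25 uninduced and 69.3 induced). The size of this difference with other added constants was not tested. Oprm1, the receptor for morphine and endorphins, read 197, 171, 33.8 and 165 uninduced and 30.6, 33.2, 48.4 and 176 induced. High and low values occurred in both groups (-1.01 ± 0.59, limma adjusted p = 0.421). Its other 3 probe sets differed by 0.62, 0.15 and -0.20, and none was called. Oprk1 (-0.82 ± 0.57), Oprd1 (-0.19 ± 0.61) and the neurotensin receptor Ntsr2 (-0.31 ± 0.47) were not called, and Oprl1 was not tested.

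Of 32 amine receptors 22 were tested and limma called 0, with 0 at an unadjusted p under 0.05. Their median difference was 0.01. Drd3, a Gi-coupled dopamine receptor, read 2234, 1678, 1614.5 and 2341 uninduced and 1522, 1819, 2161.5 and 2436 induced. The groups were interleaved, with a difference of 0.01 ± 0.16 and a 95% interval of -0.35 to 0.37. The other Drd3 probe set read 4.4 to 15.3 on the 8 arrays, so the bright signal rests on a single probe set. Drd5, a Gs-coupled dopamine receptor, read 215, 106.6, 129 and 240.0 uninduced and 162, 195, 210.4 and 204 induced (0.22 ± 0.26, interval -0.34 to 0.79). Drd4 differed by 0.05 ± 0.47, and Drd1 and Drd2 were not tested.

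Among adrenergic receptors, Adra1d, a Gq-coupled receptor of smooth muscle, read 329, 403, 423 and 461 uninduced and 289.8, 307, 491 and 477 induced. Its interval was -0.51 to 0.35 around -0.08. Its second probe set lay under the reference, at 9.6 to 32.2. Adra2b, a Gi-coupled receptor, read 276, 255.5, 232 and 264 uninduced and 225, 217, 322 and 436 induced, so that the spread between induced arrays exceeded the difference of 0.16 ± 0.22 (interval -0.31 to 0.64). Adrb3, the beta receptor of adipose tissue, read 223.5, 101, 79.9 and 209.9 uninduced and 37.8, 44.6, 43.7 and 217 induced. Only induced replicate 4 of its group reached the uninduced range, and the difference was -1.04 ± 0.52 (limma adjusted p = 0.327). Without induced replicate 4 it was -1.59 and passed (limma adjusted p = 0.03), the only 1 of 19 alternatives that did. In the other fits without 1 array the limma adjusted p was 0.28 to 0.552. Adrb3 exceeded the reference on 2 of 4 uninduced arrays and on 1 of 4 induced arrays, replicate 4. Adra1b had means of 85.4 ± 26.4 uninduced and 44.6 ± 30.4 induced with every value under the reference (limma adjusted p = 0.30). Differences of Adra1a, Adra2a and Adrb1 were -0.20, -0.09 and 0.32, none called.

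Chrm5, a Gq-coupled muscarinic receptor, read 272, 301, 240.0 and 311 uninduced and 222.5, 249.8, 309 and 292 induced, a difference of -0.07 ± 0.16 with an interval of -0.43 to 0.29. Chrm1, Chrm2, Chrm3 and Chrm4 differed by -0.18, -0.63, 0.02 and 0.16, and none was called. Htr6, a Gs-coupled serotonin receptor, read 253, 120.1, 146 and 222 uninduced and 157, 197, 183 and 334 induced (0.23 ± 0.28, interval -0.40 to 0.85). The groups overlapped widely. Htr1f, a Gi-coupled serotonin receptor, was the only gene under the filter whose groups did not overlap. It read 5.9, 4.4, 4.6 and 4.0 uninduced and 9.7, 6.1, 9.5 and 9.7 induced, far under the reference, and was not tested. With it, 4 of the 69 genes had groups that did not overlap (3 of the 44 tested), where 10.2% of all probe sets outside the controls and 13.6% of those tested did so.

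Of 9 purine receptors 4 were tested, and limma called 0, with 0 at an unadjusted p under 0.05. Adora2a, a Gs-coupled adenosine receptor, read 478, 466, 432 and 537.5 uninduced and 388, 445.5, 519 and 532 induced. The groups were interleaved around a difference of -0.03 ± 0.14, the narrowest error of the 44 genes, and the 95% interval was -0.33 to 0.27. Adora2b (-0.39 ± 0.56), P2ry2 (0.28 ± 0.28) and P2ry4 (-0.33 ± 0.40) were not called. Adora1, P2ry1, P2ry6, P2ry12 and P2ry14 were not tested.

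Grouped by the G protein they mainly use, 8 Gs-coupled genes were tested with 0 called (0 at an unadjusted p under 0.05) and a median difference of -0.19. Of 18 Gi-coupled genes 0 were called (2 at an unadjusted p under 0.05), with a median of 0.01. Among 16 Gq-coupled genes Bdkrb2 rose and 0 fell (2 at an unadjusted p under 0.05), with a median of -0.13. Every Bdkrb2 value lay under the background reference. Over all tested probe sets 7.06% were called and 18% had an unadjusted limma p under 0.05. Agtr2 belongs to none of these classes.

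The receptors shifted together from array to array within a group. The mean deviation of the 44 tested genes from their own mean log2 level was 0.12, 0.05, -0.15 and 0.26 in uninduced replicates 1 to 4 and -0.35, -0.30, 0.12 and 0.26 in induced replicates 1 to 4. Over all tested probe sets the same quantity was 0.03, -0.02, -0.06 and 0.09, and -0.12, -0.08, 0.04 and 0.12. In both sets the arrays with the lower median signals (97.5 to 111) had lower values than those with the higher ones (119 to 134.9). The part of this shift in the difference of single genes was not tested beyond the scaling alternatives. The number of receptor genes above the array's reference was 11 to 20 in uninduced and 13 to 22 in induced samples.

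Downstream of the receptors, 47 genes for G protein subunits, receptor kinases, arrestins, RGS proteins, adenylyl cyclases, phospholipase C beta and inositol trisphosphate receptors were measured, 34 of which were tested. One of them fell and 0 rose (2.94% called, beside 7.06% of all probe sets). At an unadjusted p under 0.05 there were 8 of the 34 (23.5%, beside 18% of all). Differences were negative for 24 and positive for 10, with a median of -0.14. Over all tested probe sets 3468 differences were negative and 2660 positive, with a median of -0.05. With median centring of the arrays the median of the list was -0.10, and 5 genes had an unadjusted limma p under 0.05. On all 8 arrays 26 of the 47 lay above the background reference. The share that did so was 10.1% for the receptors and 45.2% for all genes with a single symbol.

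**Figure D4:**
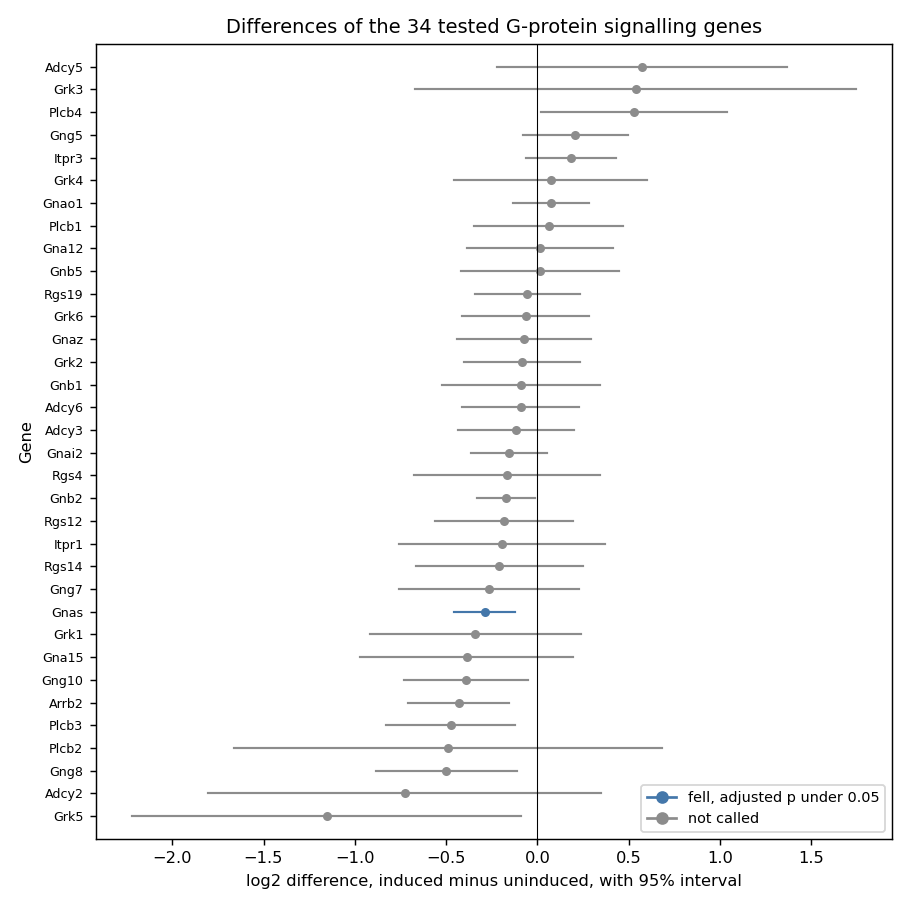
Log2 difference (induced minus uninduced) with its 95% interval for the 34 tested genes of G-protein signalling, in order of size. Gnas at -0.29 is the gene that fell, and 24 of the 34 differences are under 0.

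The gene that fell was Gnas, which encodes the alpha subunit of Gs. Its signal was 26784, 26899, 27982 and 27242 uninduced and 23017, 21220, 23922 and 21109 induced. The groups did not overlap, and the difference of -0.29 ± 0.08 had a limma adjusted p of 0.0441. That call held in 1 of the 8 fits without 1 array (without induced replicate 3, limma adjusted p = 0.0357). In the other 7 the limma adjusted p was 0.0504 to 0.138. The call ended with median centring (0.541), quantile normalization (0.216), no intensity trend (0.179) and no filter (0.11). It also ended with the replicate number as a block (0.0806) and without replicate 2 of each group (0.277). Of the other 3 Gnas probe sets, 2 fell. The first read 369, 405.5, 398 and 505 uninduced and 206, 209, 257 and 245 induced, and its difference of -0.85 ± 0.15 (limma adjusted p = 0.0051) held in all 8 fits without 1 array and ended without replicate 2 of each group (0.057). The second differed by -0.44 ± 0.09 (limma adjusted p = 0.0141; 0.357 with median centring, 0.0894 without an intensity trend, 0.0554 without uninduced replicate 3 and 0.101 without replicate 2 of each group). The third, at -0.23 ± 0.15, was not called (limma adjusted p = 0.486).

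Arrb2, the arrestin that binds phosphorylated receptors, Plcb3, a phospholipase C, and Gng8, a gamma subunit, followed Gnas in the order of p and were chosen after their values were seen. Arrb2 read 499, 509, 489 and 436 uninduced and 321, 342, 368 and 397 induced. The groups did not overlap, and the difference of -0.43 ± 0.13 was not called (limma adjusted p = 0.0688). It passed with the filter at the 50th percentile (0.0427) and with array weights (0.0205). Its second probe set fell by 0.66 ± 0.17 (limma adjusted p = 0.0366), a call that held only without induced replicate 3 among the 8 fits without 1 array (limma adjusted p = 0.0515 to 0.109 in the other 7) and ended with median centring (0.105), no intensity trend (0.0697), no filter (0.0552) and without replicate 2 of each group (0.14). Plcb3 differed by -0.47 ± 0.16 (limma adjusted p = 0.121) and Gng8 by -0.50 ± 0.18 (limma adjusted p = 0.141). The second Plcb3 probe set differed by -0.52 ± 0.30 (limma adjusted p = 0.415). That of Gng8 differed by 0.03 ± 0.31 (limma adjusted p = 0.979), so the Gng8 probe sets disagree.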

How the data were processed

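The authors deposited 1 scaled signal intensity per probe set for each of 8 arrays, linear and above 0. Trimmed means (2% from each end) were 500.8 to 500.9 on every array, so the deposited intensities had been scaled to a common level. The software is not given in the sources used here. Depth does not apply to arrays, and 4 arrays per group limit the precision.

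Signals were taken as log2(signal + 7), where the constant is the 10th percentile of the table rounded to a whole number. Controls (59 probe sets) and 2611 others with a mean under the 30th percentile (36.0) were left out. Induced and uninduced samples were compared with limma 3.58.1 in R 4.3.3 (lmFit, eBayes with an intensity trend, 6 residual and 5.77 prior degrees of freedom), threshold 0.05 on the Benjamini-Hochberg adjusted p. The fit was tested on simulated data.

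Symbols came from the array's annotation: 7018 probe sets had 1, 308 several and 1473 none. The receptor genes, the lists and the tests were chosen with earlier results of these data known. Genes named were those called, those with an unadjusted p under 0.05, the 10 with the highest mean signal and those whose groups do not overlap. Others are named for completeness of a family. Alternatives varied the constant, filter, scaling, variance model, weights, replicate block, probe set rule, background level and arrays.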

Additional observations from a re-analysis of the deposited data

Results flagged for a closer look

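Within the groups of 4 arrays of the named receptor genes, 2 values of 28 groups checked stood far from the other 3 arrays, by the gap to the nearest array over the whole range on the log2 scale. Chance flags about 1 group in 20. Galr2 read 251.2 in induced replicate 4 and 563 to 637 in the other induced arrays (gap over range 0.867), and its difference was -0.31 without that array. Htr1f read 6.1 in induced replicate 2 and 9.5 to 9.7 in the other 3 (gap over range 0.95), all under the background reference.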

How the results depend on the processing

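The count of receptor genes called was 2 and became 1 with a constant of 1, with a filter at the 50th percentile (20 genes tested) and with median centring, Agtr2 each time. It was 0 of 44 without replicate 2 of both groups (limma, 4 at an unadjusted p under 0.05), and 1 to 2 without 1 array. It was 3 with quantile normalization or no intensity trend (Sstr5 added) and with array weights (Agtr2, Npy1r and Sstr5). When every probe set was counted by itself, 3 probe sets were called (1 rose, 2 fell). These were both Agtr2 probe sets and that of Bdkrb2, so no further gene was added. Over all probe sets the count was 433, and 279 without an intensity trend, 230 with median centring, 221 without replicate 2 of both groups and 313 to 408 without 1 array.

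Of the G-protein signalling genes 1 was called. The count was 0 with no filter, median centring, quantile normalization, no intensity trend or the replicate block, and without replicate 2 of both groups (limma, 5 to 8 at an unadjusted p under 0.05 in these fits). It was 2 with the filter at the 50th percentile or array weights (Gnas and Arrb2), and 0 to 1 without 1 array. Taking the highest control probe set as background left 6 genes above it in all induced arrays, in place of 10, and 6 in place of 8 in all uninduced arrays.

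Replicate numbers are shared between the groups, and the labels do not say whether same-numbered samples were paired. Deviations of same-numbered arrays correlated at -0.14, 0.06, -0.09 and 0.19, and of these only replicate 4 correlated best with its own number. Such weak correlations, which also carry array-wide shifts, cannot decide whether the samples were paired. With the replicate block 3 receptor genes were called, Galr2 among them (limma adjusted p = 0.0485), and 367 probe sets in all, while Gnas was not (limma adjusted p = 0.0806). Where a count changed, the cause was not tested. On no array did 42 of the 69 receptor genes exceed the background reference, and the sizes of differences of such genes depend on the constant added, as for Bdkrb2 (0.88 to 2.07 with constants of 50 and 1).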
